A study of Homo sapiens with 5 samples.

Results

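A set of 8 genes of cholesterol synthesis and its feedback control was followed through 5 libraries of HT1080 cells, a human fibrosarcoma line. They were taken by symbol from the 27189 genes of the deposited files, and all 8 were found: HMGCS1, IDI1, FDPS, FDFT1, SQLE, CYP51A1, DHCR7 and INSIG1. The cells had been embedded in type I collagen at 2 mg per ml and kept for 24 h. The LD library came from matrices at 10 cells per cubic mm without added cytokine, and the HD library from matrices at 50 cells per cubic mm, also without cytokine. The IL-6 and IL-8 libraries came from the lower density with 1 recombinant interleukin each, and the RM library from the same density with both, at a ratio of 5 to 2. Each condition was sequenced as 1 library of this single line, so no difference below has a replicate check, and intervals cover the counting of reads only. Comparisons with LD share the LD library. In bulk RNA, fewer cells of a type and less RNA per cell cannot be told apart.

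Cells make cholesterol from acetyl-CoA by way of mevalonate, isoprenoids, squalene and a series of sterols. When sterols run short, the membrane protein SCAP escorts the transcription factor SREBP-2, the product of SREBF2, to the Golgi, where proteases release its active part and the genes of the pathway are switched on. When sterols are plentiful, INSIG proteins hold SCAP back in the endoplasmic reticulum. INSIG1 is itself a target of SREBP-2, so its transcript is used as a reading of the pathway's state.

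The total was 5096134 to 7118545 reads in the 4 low-density libraries and 926376 in HD. A ribosomal RNA entry, RNA5-8S5, took 76.9 to 79.6% of the reads at low density and 51.5% in HD, and it was left out of every scale used below. This left 1100967 to 1645539 reads at low density and 449661 in HD, so that 3 reads correspond to 1.82 CPM in LD (reads scaled to 1000000 outside RNA5-8S5) and 6.67 in HD. All 8 listed mesenchymal and HT1080 markers, such as VIM and FN1, were counted in each library, with a summed level of 7417 to 11193 TPM (abundance per transcript length, scaled to the same total) at low density and 1352 in HD. Of 10 matched markers of other cell types (11 listed), 1 to 4 had a read in the low-density libraries (4 to 13 reads together) and 8 had one in HD (160 reads, 370 TPM), with ALB and CYP7A1 at 0 in all 5. Olfactory receptor genes, which serve the sensory neurons of the nose, held reads in 14 to 37 of 386 entries at low density and in 240 in HD. The HD library stood apart in these ways, and their part in the HD results was not tested.

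In LD the 8 genes together took 842 CPM, on 1385 reads. The same sum was 762 CPM with IL-6, 721 with IL-8, 692 in RM and 276 at HD. Per length, FDPS was the most abundant in LD at 294 TPM, followed by FDFT1 at 104, SQLE at 71.8, CYP51A1 at 62.2, DHCR7 at 52.2, INSIG1 at 39.3, IDI1 at 35.8 and HMGCS1 at 11.9. FDPS thus lay at the 97.4th percentile of TPM in LD and HMGCS1 at the 72.1st, among the 21313 genes that reached 1 TPM in any library, a filter that all 8 passed. The genes had 61 to 368 reads in LD but 3 to 41 in HD.

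**Figure D1:**
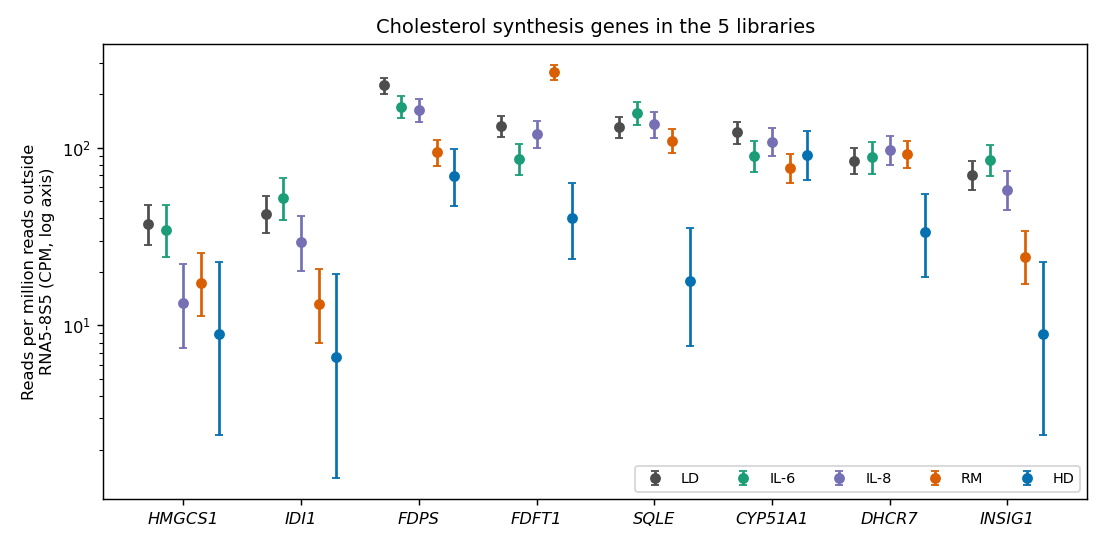
Level in CPM, on reads outside RNA5-8S5 (log axis), for the 8 genes, with 1 point for each library and bars for the exact 95% Poisson interval of the count. FDFT1 was highest in RM at 265 CPM, INSIG1 and IDI1 were lower in RM than in the other low-density libraries, and the HD points carry the widest bars.

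The first enzymes lead from acetyl-CoA to the isoprenoids. HMGCS1, which makes HMG-CoA, had 61 reads in LD, 38 with IL-6, 15 with IL-8, 25 in RM and 4 at HD, corresponding to 11.9, 12.6, 3.79, 5.95 and 3.4 TPM. It was thus at a like level in LD and IL-6 and lower in the other libraries. The log2(TPM + 1) difference from LD was -1.43 in IL-8, with a ratio of read shares of 0.361 (95% exact interval 0.191 to 0.643), and -0.89 in RM (0.470, 0.283 to 0.760). RM and IL-8 could not be told apart for this gene, the ratio of RM to IL-8 being 1.3 with an interval of 0.66 to 2.66.

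IDI1, the isomerase that makes dimethylallyl diphosphate, had 70 reads in LD, 57 with IL-6, 33 with IL-8, 19 in RM and 3 at HD, or 35.8, 41.8, 22.5, 10.3 and 7.71 TPM. RM was below each of the other low-density libraries. The log2 difference from LD was -1.71 in RM (read ratio 0.311, 0.177 to 0.523) and -0.65 in IL-8 (0.692, 0.443 to 1.06). Its neighbour and relative IDI2 had 0 to 9 reads, and how many reads the pair share was not measured.

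FDPS, which joins isoprenoid units into farnesyl diphosphate, the branch point to sterols, prenylated proteins and ubiquinone, had 368 reads in LD, 187 with IL-6, 181 with IL-8, 135 in RM and 31 at HD. In TPM these were 294, 231, 200, 120 and 132. LD was the highest and RM the lowest of the low-density libraries, with a log2 difference of -1.28 between them (read ratio 0.421, 0.343 to 0.514). IL-6 and IL-8 lay in between, and the interval of their own ratio to LD was 0.633 to 0.908 for IL-6 and 0.601 to 0.865 for IL-8. These intervals rest on library totals. With other scalings between libraries, TMM and median-ratio, FDPS stood at -0.26 and -0.12 from LD in IL-8 and at -0.49 and -0.45 in IL-6.

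FDFT1, squalene synthase, the first enzyme committed to sterols, ran the other way in RM. It had 217 reads in LD, 95 with IL-6, 133 with IL-8, 380 in RM and 18 at HD, or 104, 70.1, 102, 233 and 38.5 TPM. RM was above all other libraries. The log2 difference of RM was 1.16 from LD (read ratio 2.01, 1.70 to 2.38), 1.72 from IL-6 (3.07, 2.45 to 3.89) and 1.19 from IL-8 (2.23, 1.83 to 2.74). In TPM the step from LD to RM was 2.25-fold.

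SQLE, squalene epoxidase, had 215 reads in LD, 172 with IL-6, 151 with IL-8, 157 in RM and 8 at HD, or 71.8, 85.9, 69.6, 54.7 and 13.3 TPM. The low-density libraries spanned 1.57-fold in TPM. None of the 3 cytokine libraries had a ratio to LD whose interval left out 1, while the ratio of HD to LD was 0.136 (0.058 to 0.273). CYP51A1, the lanosterol demethylase, had 200 reads in LD, 99 with IL-6, 121 with IL-8, 110 in RM and 41 at HD, or 62.2, 46, 51.7, 35.3 and 68.5 TPM. Its read ratio to LD was 0.740 in IL-6 (0.575 to 0.946) and 0.631 in RM (0.495 to 0.800), and the log2 difference of RM was -0.80. With TMM and median-ratio scaling, CYP51A1 stood at -0.23 and -0.06 in RM. It was the member that differed least between HD and LD, at 0.14 in log2(TPM + 1) and with a read ratio of 0.750 (0.522 to 1.05). On the CPM scale the same difference was -0.41, so no direction is given. FDPS and CYP51A1 have processed pseudogenes, and how reads shared with these were divided is not given in the sources used here.

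DHCR7, which reduces the last double bond on the way to cholesterol, was the steadiest at low density in TPM and CPM. It had 139 reads in LD, 97 with IL-6, 109 with IL-8, 132 in RM and 15 at HD, or 52.2, 54.6, 56.3, 51.9 and 28.1 TPM. The low-density libraries spanned 1.08-fold in TPM and 1.15-fold in CPM. With TMM and median-ratio scaling DHCR7 was 0.55 and 0.72 above LD in RM, where SQLE was 0.17 and 0.34 above. RM differed from LD by -0.01 in log2(TPM + 1), with a read ratio of 1.09 and an interval of 0.852 to 1.39, so a difference inside that interval was not detectable at this depth.

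INSIG1, the feedback protein, had 115 reads in LD, 94 with IL-6, 65 with IL-8, 35 in RM and 4 at HD, or 39.3, 46.9, 30.4, 12.7 and 6.58 TPM. RM was below each of the other low-density libraries, as for IDI1. The log2 difference of RM was -1.56 from LD (read ratio 0.349, 0.232 to 0.514), -1.81 from IL-6 (0.286, 0.188 to 0.425) and -1.20 from IL-8 (0.421, 0.271 to 0.644). INSIG1 and IDI1 shared the order IL-6, LD, IL-8, RM, HD from high to low in CPM. In that order only the step from IL-8 to RM had an interval that left out 1 for either gene. Over all 8 genes, 22 of 32 such steps between neighbours in the order had an interval that held 1.

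**Figure D2:**
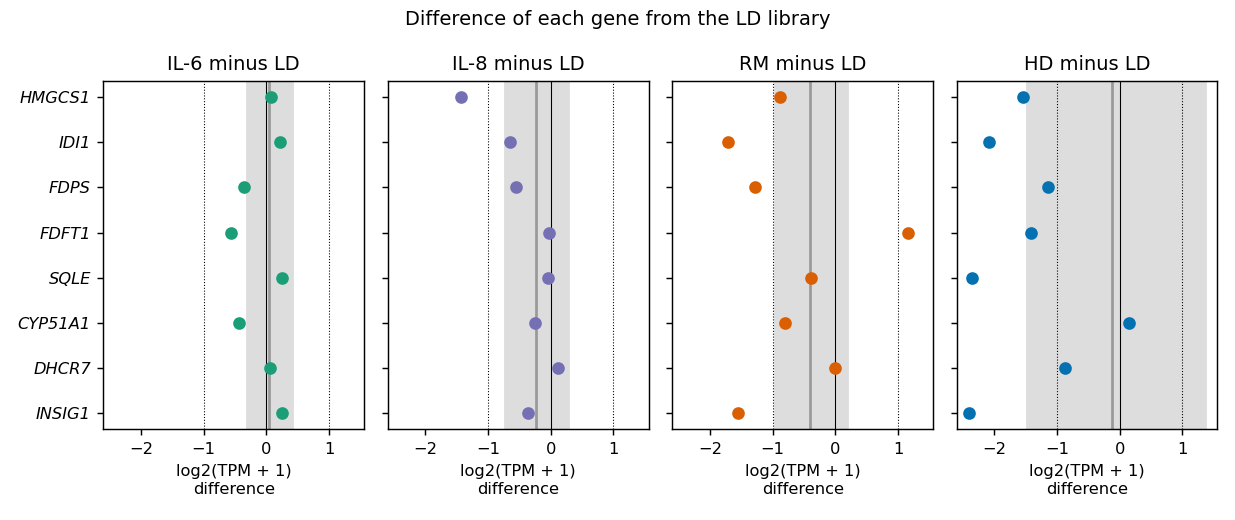
Difference in log2(TPM + 1) of each gene between a library and LD, with 1 panel for each comparison. The grey band spans the middle 50% and the grey line the median of the 3596 genes with at least 10 reads in all 5 libraries, and dotted lines mark 1 log2 unit in each direction. In RM the genes run from -1.71 for IDI1 to 1.16 for FDFT1.

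The comparison with IL-6 asked what this interleukin does alone at low density. With the threshold of 1 log2 unit, 0 of the 8 genes passed in either direction, and no p-value is possible with 1 library each. Over the 21313 genes, 12.2% were higher in IL-6 by that much and 8.42% lower. The median of the 8 genes was 0.07, against 0.04 for the 3596 well-counted genes. The signs were split, with 5 genes above LD and 3 below, although HMGCS1 was at -0.10 in CPM and DHCR7 at -0.03 with TMM scaling. FDPS, FDFT1 and CYP51A1 were the 3 below, and for each the interval of the read ratio lay under 1. FDFT1 was furthest, at -0.56 (0.654, 0.509 to 0.836).

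With IL-8 alone, HMGCS1 passed 1 log2 unit below LD (1 of 8 genes) and 0 passed above it. Of all genes tested, 18.0% were lower and 9.40% higher. The median of the 8 genes was -0.31, close to the -0.24 of the well-counted genes. The log2 difference of the other 7 lay between -0.65 for IDI1 and 0.11 for DHCR7. FDFT1, SQLE, CYP51A1 and INSIG1 were below LD on the TPM scale but above it with median-ratio scaling (0.19, 0.39, 0.17 and 0.07), so no direction is given for them.

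RM asked what both interleukins do together. IDI1, INSIG1 and FDPS passed 1 log2 unit below LD and FDFT1 above it, so that 3 of 8 were lower and 1 of 8 higher, against 22.5% and 7.11% of all genes tested and 23.6% and 8.04% of the well-counted genes. The median of the 8 genes was -0.85, against -0.40 for the well-counted genes. On library totals, the pooled reads of the 8 genes had a ratio to LD of 0.823 (0.757 to 0.893). Without FDFT1, the other 7 genes held 613 reads in RM and 1168 in LD, a ratio of 0.602 (0.545 to 0.664). FDFT1 is the gene that was higher in RM in these same data, so leaving it out lowers the ratio by construction. The scale matters for RM. Set against the library totals, TMM factors shift RM minus LD up by 0.43 and median-ratio factors by 0.60, less in genes of few reads because of the pseudocount. This left IDI1 (-1.21 and -1.04) and FDFT1 (1.43 and 1.60) past 1 log2 unit, brought FDPS to -0.82 and -0.64, INSIG1 to -1.07 and -0.89, and put SQLE at 0.17 and 0.34 and DHCR7 at 0.55 and 0.72, while both were below LD on the TPM scale. HMGCS1 moved to -0.64 and -0.47 and CYP51A1 to -0.23 and -0.06. Under median-ratio scaling 14.5% of all genes were higher and 15.3% lower. Of the 8 mesenchymal and HT1080 markers, 3 (NRAS, MMP14 and CD44) also passed 1 log2 unit below LD in RM, with a list median of -0.62, and their part in the result was not tested.

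RM was also set beside each interleukin alone. Against IL-6, IDI1 (-1.93) and INSIG1 (-1.81) were lower by at least 1 log2 unit and FDFT1 (1.72) was higher, where 26.0% of all genes were lower and 6.92% higher. Against IL-8, the same 3 genes passed, IDI1 at -1.06, INSIG1 at -1.20 and FDFT1 at 1.19, where 16.9% of all genes were lower and 10.9% higher. FDPS stood at -0.93 from IL-6 and -0.73 from IL-8. Set against library totals, TMM and median-ratio factors shift RM minus IL-6 up by 0.52 and 0.66 and RM minus IL-8 by 0.22 and 0.26. This makes the FDPS differences smaller. Against IL-8 it brought IDI1 to -0.90 and -0.86, and INSIG1 to -0.97 with median-ratio scaling, within 1 log2 unit. The comparisons with IL-6 and IL-8 share the RM library with each other and with the comparison to LD.

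Ratios of 2 genes within a library need no scaling between libraries. The pairs were picked after the values had been seen. FDFT1 had 0.590 reads for each FDPS read in LD (95% exact interval 0.496 to 0.699), 0.508 with IL-6 (0.393 to 0.654), 0.735 with IL-8 (0.583 to 0.924), 2.81 in RM (2.31 to 3.45) and 0.581 at HD (0.306 to 1.07). RM alone had more FDFT1 than FDPS reads, and the balance between these consecutive steps was 4.77 times that of LD (3.66 to 6.23), 5.53 times that of IL-6 (3.99 to 7.69) and 3.82 times that of IL-8 (2.81 to 5.22). In TPM the ratio went from 0.353 in LD to 1.94 in RM. DHCR7 was the steadiest gene at low density in TPM and CPM, though not with TMM or median-ratio scaling. Against DHCR7, INSIG1 had 0.827 reads in LD, 0.969 with IL-6, 0.596 with IL-8, 0.265 in RM and 0.267 at HD. The RM ratio was 0.321 times that of LD (0.199 to 0.511). IDI1 over DHCR7 was 0.287 times LD in RM (0.154 to 0.513), and FDPS over DHCR7 was 0.387 times LD (0.280 to 0.533).

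**Figure D3:**
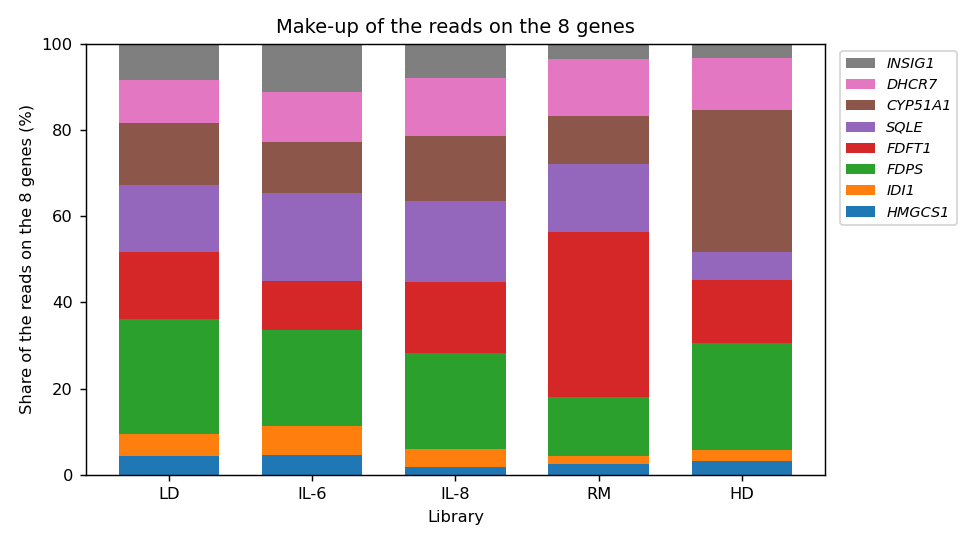
Share of the reads on the 8 genes held by each gene in each library, in percent of 1385 reads in LD, 839 with IL-6, 808 with IL-8, 993 in RM and 124 at HD. FDFT1 held 38.3% in RM and CYP51A1 33.1% in HD, the largest shares in those libraries.

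Shares of the reads on the 8 genes sum to the whole, so a share of one gene moves with the reads of the others. FDFT1 held 15.7% of the reads on the 8 genes in LD (95% Clopper-Pearson interval 13.8 to 17.7%), 11.3% with IL-6, 16.5% with IL-8, 38.3% in RM (35.2 to 41.4%) and 14.5% in HD. CYP51A1 held 11.1 to 15.0% at low density and 33.1% in HD (24.9 to 42.1%), where its own read ratio to LD was 0.750.

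HD against LD asked what density does without added cytokine. The genes HMGCS1, IDI1, FDPS, FDFT1, SQLE and INSIG1 passed 1 log2 unit below LD in HD (6 of 8) and 0 passed above it, while 60.1% of all genes were higher and 20.3% lower. Among the well-counted genes 30.5% were higher and 33.6% lower, and only 4 of the 8 are in that class. The median of the 8 genes was -1.48, against 1.85 for all genes and -0.13 for the well-counted ones. HD itself shaped both classes. A gene could enter the first through HD alone, where 20112 genes had a read against 14798 in LD. It was left out of the second if it had under 10 reads in HD. Neither median is therefore a like background for the 8 genes. The largest differences were those of INSIG1 (-2.41), SQLE (-2.35) and IDI1 (-2.08). At the share they had in LD, HD would have given INSIG1 31.4 reads and SQLE 58.8, where 4 and 8 were counted. For IDI1 the count in HD was 3 reads against 19.1. DHCR7 had 15 against 38 and differed by -0.87, or -1.31 in CPM. Of the 8 mesenchymal and HT1080 markers 7 were also lower in HD, with a list median of -2.43. The 8 markers of other cell types with a read in HD were all higher there. All of these but PECAM1 had 0 reads in LD, so a read in HD could only put them higher. The part of either list in the result was not tested.

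The rest of the pathway was taken as 13 listed genes of mevalonate and sterol synthesis, all measured. In RM 4 passed 1 log2 unit below LD, 1 passed above and 8 lay within, with a median of -0.59, where 22.5% of all genes were lower and 7.11% higher. With TMM or median-ratio scaling 2 were lower, since ACAT2 (-0.50 and -0.33) and GGPS1 (-0.87 and -0.71) then lay within. NSDHL, a demethylating enzyme after CYP51A1, had 86 reads in LD and 23 in RM (-1.78), and LBR, a sterol reductase that is also a nuclear envelope protein, 20 and 3 (-2.01). ACAT2, which condenses acetyl-CoA at the head of the pathway, and GGPS1, which makes geranylgeranyl diphosphate, were the other two. PMVK, a mevalonate pathway kinase, was the gene that was higher, at 23 reads in LD and 50 in RM (1.14).

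In IL-6, 1 of the 13 was lower than LD (8.42% of all genes), the mevalonate kinase MVK with 75 reads in LD and 10 in IL-6 (-2.62). In IL-8, 3 were lower (18.0% of all genes) and 1 was higher (9.40%). The 3 became 1 in CPM and with TMM or median-ratio scaling, where MVK stood at -0.80 with TMM and HSD17B7 at -0.71, and ACAT2 stayed past 1 log2 unit. The higher one was TM7SF2, a sterol reductase with 1 read in LD and 14 in IL-8, for which the read ratio of 20.6 had an interval of 3.13 to 869. In HD 6 were lower, 3 higher and 4 within, against 20.3% and 60.1% of all genes, and with TMM 1 was higher. NSDHL had no read in HD, which puts it at least 7.83-fold lower than in LD against a floor of 3 reads, and SC5D was higher, with 14 reads in LD and 22 in HD (3.03).

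**Figure D4:**
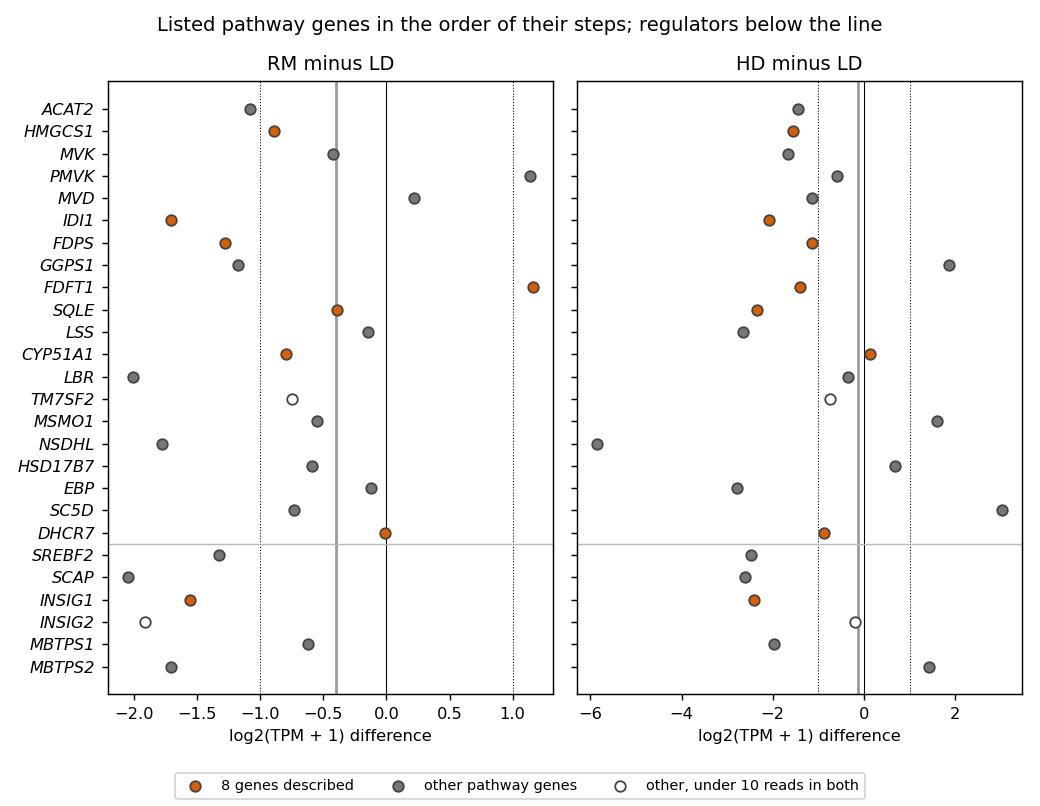
Difference in log2(TPM + 1) from LD for RM (left) and HD (right), on separate axes, for the 8 genes and the listed genes of synthesis and control. The grey line is the median of the well-counted genes, dotted lines mark 1 log2 unit, white points had under 10 reads in both libraries, and the value of NSDHL in HD, with 0 reads there, depends on the pseudocount. In RM, FDFT1 (1.16) and PMVK (1.14) stand to the right of genes such as IDI1 (-1.71) and SCAP (-2.05).

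Of the genes that control the pathway, 5 of 6 listed were matched. In RM 4 of these 5 passed 1 log2 unit below LD, against 22.5% of all genes. SREBF2 had 377 reads in LD, 239 with IL-6, 180 with IL-8, 142 in RM and 13 at HD, and its log2 difference in RM was -1.33 (read ratio 0.432, 0.354 to 0.525). SCAP, the escort, had 176 reads in LD, 101 with IL-6, 112 with IL-8, 44 in RM and 7 at HD, and its difference in RM was -2.05 (0.287, 0.201 to 0.401). RM was the lowest of the low-density libraries for both. MBTPS2, the second protease, had 17 reads in LD and 1 in RM, and INSIG2 6 and 0. With median-ratio scaling SCAP stood at -1.18 and SREBF2 at -0.60. In HD 3 of the 5 were lower (20.3% of all genes) and 1 was higher (60.1%), with SCAP at -2.62 and SREBF2 at -2.47. The higher one was MBTPS2, with 17 reads in LD and 6 in HD (1.43). It stood at 0.34 in CPM and -0.20 with TMM, so no direction is given for it. In IL-6 0 of the 5 passed in either direction, and in IL-8 1 did, INSIG2, which had 0 reads there.

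Of 9 listed genes of fatty acid synthesis, which the related factor SREBP-1 controls, 2 were lower than LD in RM and 1 was higher, ACSS2 with 8 and 9 reads (0.31 in CPM), against 22.5% and 7.11% of all genes. The lower ones were FADS1, a desaturase, with 258 and 98 reads (-1.68), and FASN, fatty acid synthase, with 748 and 383 (-1.35). In CPM, which does not use the transcript lengths, FASN differed by -0.77. With TMM and median-ratio scaling FASN stood at -0.34 and -0.16 and FADS1 at -0.76 and -0.59. In IL-8 3 were lower (18.0% of all genes), ELOVL6 (-1.12), ACACA (-1.14, 112 and 31 reads) and LPIN1 (-1.23, 18 and 5 reads). With median-ratio scaling all of these lay within 1 log2 unit, at -0.87, -0.93 and -0.82. In IL-6 LPIN1 alone was higher (1.07). In HD 4 were lower and LPIN1 was higher (2.60), against 20.3% and 60.1% of all genes, and ACLY, which supplies cytosolic acetyl-CoA, had 988 reads in LD and 14 in HD (-3.87).

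Users of the isoprenoids, 8 of 9 listed genes matched, gave 3 lower and 0 higher in each of IL-6, IL-8 and RM, where 8.42%, 18.0% and 22.5% of all genes were lower. The 3 were PGGT1B (6 and 0 reads), RABGGTA and COQ2 in IL-6, RABGGTA, PDSS1 and PDSS2 in IL-8, and PDSS1, PDSS2 and COQ2 in RM. With TMM and median-ratio scaling PDSS2 lay within 1 log2 unit in RM (-0.92 and -0.75) and DHDDS passed it in IL-6 (-1.09 and -1.05). PDSS1, which builds the ubiquinone tail, had 26 reads in LD, 2 with IL-8 (-3.34) and 6 in RM (-1.71). COQ2, which attaches that tail, had 25 in LD, 5 with IL-6 (-1.55) and 5 in RM (-1.97). RABGGTA, a subunit of the enzyme that prenylates Rab proteins, had 142 in LD and 19 in IL-8 (-2.41) but 169 in RM (0.30, or 1.04 with median-ratio scaling). In HD 3 were lower and 2 higher, against 20.3% and 60.1% of all genes, with RABGGTA at -2.78 and PDSS1 at 0 reads, at least 2.37-fold lower against the floor.

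Of 9 genes of sterol transport, storage and efflux, 0 were lower in RM (22.5% of all genes) and MYLIP, a ubiquitin ligase induced by sterol-sensing receptors, was higher, with 0 reads in LD and 10 in RM, at least 3.82-fold against the floor. NPC1, which exports cholesterol from lysosomes, had 105 reads in LD, 18 with IL-8 (-2.18) and 266 in RM (0.92, read ratio 2.91, 2.31 to 3.68). In RM it was within 1 log2 unit in TPM but past it in CPM (1.52), with TMM (1.95) and with median-ratio scaling (2.12). In IL-6 0 of the 9 passed in either direction. In HD 4 were higher and 2 lower, where 60.1% of all genes were higher and 20.3% lower, with ABCG1, an efflux transporter, at 0 reads in LD and 10 in HD (at least 12.2-fold) and NPC2 at 322 and 3 (-4.22).

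The 8 genes did not share a single profile. Their mean log2(TPM + 1), centred over the 5 libraries, was 0.52 in LD, 0.46 with IL-6, 0.12 with IL-8, -0.16 in RM and -0.94 at HD. Among the 5 entries nearest to this mean, of 3592 other well-counted ones, were TOMM40, a part of the mitochondrial import channel, at a root mean square difference of 0.06, an entry whose symbol had been turned into a number (0.07), RPS4Y1 (0.10) and the myosin MYO1C (0.10). The 8 genes themselves lay at 0.27 (DHCR7) to 0.80 (FDFT1) from their own mean, further than 174 or more other genes, since DHCR7 ranked 175 and FDFT1 1768. Over the 4 low-density libraries alone, a setting added after the values had been seen, SQLE ranked 255 and FDFT1 5434 of 6133.

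Promoter windows of 6 of the 8 genes were matched in RefSeq (GRCh38.p14), at 10 start sites, and the 250 bases before each start were searched on both strands. FDFT1 and SQLE had no window. A window is shown for each of the 4 genes past 1 log2 unit below LD in RM or IL-8 (INSIG1, IDI1, FDPS and HMGCS1). Another is shown for DHCR7, steady at low density in TPM and CPM, so that the promoter elements can be compared. For a gene of several windows the one shown has the most CCAAT matches. Capitals mark CCAAT, the box bound by NF-Y, GGGCGG, the GC box bound by Sp1, and CACGTG, an E-box, or their complements.

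INSIG1: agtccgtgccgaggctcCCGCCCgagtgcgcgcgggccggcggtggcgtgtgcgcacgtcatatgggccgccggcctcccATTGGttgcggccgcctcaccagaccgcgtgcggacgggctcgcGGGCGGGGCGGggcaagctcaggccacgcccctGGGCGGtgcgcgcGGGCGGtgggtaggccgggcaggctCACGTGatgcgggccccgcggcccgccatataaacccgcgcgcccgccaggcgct

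IDI1: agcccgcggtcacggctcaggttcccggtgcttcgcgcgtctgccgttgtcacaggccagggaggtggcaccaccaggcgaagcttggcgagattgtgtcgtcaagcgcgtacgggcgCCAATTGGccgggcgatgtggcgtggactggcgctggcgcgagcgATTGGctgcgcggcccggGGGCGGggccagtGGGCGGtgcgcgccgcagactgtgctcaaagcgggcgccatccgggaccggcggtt

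FDPS: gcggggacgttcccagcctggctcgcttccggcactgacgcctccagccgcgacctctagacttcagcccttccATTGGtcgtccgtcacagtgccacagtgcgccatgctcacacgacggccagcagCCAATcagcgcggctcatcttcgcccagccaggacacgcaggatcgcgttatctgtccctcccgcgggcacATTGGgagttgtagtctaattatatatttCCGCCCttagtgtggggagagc

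HMGCS1: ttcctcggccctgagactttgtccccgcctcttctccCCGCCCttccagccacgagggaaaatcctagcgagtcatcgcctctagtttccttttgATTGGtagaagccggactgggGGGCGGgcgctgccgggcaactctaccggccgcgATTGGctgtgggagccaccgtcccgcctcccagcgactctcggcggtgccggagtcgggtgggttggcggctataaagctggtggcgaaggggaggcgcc

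DHCR7: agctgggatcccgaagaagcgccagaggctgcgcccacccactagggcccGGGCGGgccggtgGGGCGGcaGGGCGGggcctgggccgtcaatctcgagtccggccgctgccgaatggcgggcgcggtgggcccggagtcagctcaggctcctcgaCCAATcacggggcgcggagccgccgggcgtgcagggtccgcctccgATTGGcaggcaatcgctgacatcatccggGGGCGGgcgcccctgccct

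The INSIG1 window is chr7:155297628-155297877 on the plus strand, that of IDI1 chr10:1048887-1049136 on the minus strand, that of FDPS chr1:155308616-155308865 on the plus strand, that of HMGCS1 chr5:43313413-43313662 on the minus strand and that of DHCR7 chr11:71448394-71448643 on the minus strand. CCAAT was found in 6 of the 10 windows and in at least 1 window of 5 of the 6 genes, INSIG1, FDPS, HMGCS1, DHCR7 and IDI1, while 32.0% of 35116 windows in RefSeq hold it. A count by gene takes the best of several windows, so only the count by window is like that share. The window of CYP51A1, not shown, held 0 CCAAT and 1 GGGCGG matches. GGGCGG was found in 9 of the 10 windows, against 42.6% of all windows. CACGTG was found in the INSIG1 window alone, against 6.34%, and TCACNCCAC, a form of the sterol regulatory element, in 0 of the 10, against 0.883%, which says only that these letters are not in these windows. DHCR7, which was at 51.9 TPM in RM and 52.2 in LD, held 2 CCAAT and 4 GGGCGG matches, and INSIG1, at 12.7 and 39.3 TPM, held 1 and 5.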

How the data were processed

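HT1080 cells in collagen were profiled by RNA-seq in 5 conditions with 1 library each, and conditions were taken from the labels. The authors mapped single-end reads with Bowtie2 and summarised them per gene with RSEM. The submitters' processing notes name Bowtie2 2.3.1, RSEM 1.2.25, GRCh37 and hg19, and the annotation is not given in the sources used here. Poly-A priming, phi29 amplification of the cDNA pool and tagmentation preceded sequencing, so reads are not independent molecules. The authors deposited whole-number read counts per gene, without scaling, and a TPM value per gene, summing to 934821 to 978521 in a library. RNA5-8S5 was removed and both units were rescaled to 1000000.

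Differences were taken on log2(TPM + 1), which understates the change of low genes, over the 21313 genes that reached 1 TPM in any library, and genes at or past 1 log2 unit were counted. No test between conditions is possible with 1 library each. Intervals are exact and at the 95% level, Poisson for a count, conditional binomial for a ratio of read shares, conditional for a ratio of ratios and Clopper-Pearson for a share, and cover counting error only. The floor was 3 reads in a library.

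Alternatives were pseudocounts of 0.1 and 5, RNA5-8S5 included, CPM, median-ratio factors (DESeq2 1.42.0), TMM (edgeR 4.0.16), no filter, at least 10 reads in all 5 libraries and a threshold of 2 log2 units. Calls and intervals were tested on simulated Poisson counts. These lack any added spread from amplification, so how well the intervals cover in these data was not tested. The members and lists were chosen with earlier results of these data known. Named list genes were those of at least 10 reads in the higher library with the largest differences, up to 4 per list at low density and 2 in HD. Others are given where a count is small or are named as singled out. Some genes the plan allowed for are not reported here. Python 3.11.15, scipy 1.17.1 and R 4.3.3 were used.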

Additional observations from a re-analysis of the deposited data

How the results depend on the processing

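No difference between conditions could be tested, since each had 1 library, and no paired analysis was possible because each condition has 1 library. Of 360 differences of single genes under the alternatives, 0 of those at or past 1 log2 unit turned in sign and 14 moved across 1 log2 unit. The 360 include the settings of no filter and of at least 10 reads in all 5 libraries. These leave the difference of a single gene as it was, so none could move there. In counts of the 8 genes, a threshold of 2 log2 units left 3 lower in HD and 0 in either direction in the other comparisons. Requiring at least 10 reads in all 5 libraries kept 4 genes. Of these, 2 were lower than LD in HD, 1 in RM and 0 in IL-8, against 33.6%, 23.6% and 14.5% of all such genes. Of the same 4, 0 were lower in RM than in IL-6 or IL-8 (26.5% and 17.5%). Their median difference was then -0.39 in IL-6 and -0.40 in RM from LD, and -0.22 for RM from IL-6. With median-ratio factors 1 gene was lower in RM than in LD (15.3% of all genes) and 0 were lower in RM than in IL-8 (15.4%). The median was then -0.26 for RM and 0.12 for IL-8 from LD and -0.02 for RM from IL-6. With TMM 1 gene was lower in RM than in IL-8 (19.3% of all genes), and the median was -0.44 for RM from LD and -0.16 for RM from IL-6. With a pseudocount of 5, 0 genes were lower in IL-8 than in LD (7.53% of all genes) and 1 in RM than in IL-8 (8.05%), IDI1 being at -0.85. The 14 moves include HMGCS1 in RM (-1.05 in CPM) and DHCR7 in HD (-1.88 with TMM). Of the 13 other synthesis genes, 4 were lower in RM than in LD (22.5% of all genes). This became 1 with a pseudocount of 5 (10.6%) and 0 with at least 10 reads in all 5 libraries (23.6% of all such genes). The higher threshold and the read minimum count fewer genes by construction, and the cause of the other moves was not tested. With 3 to 41 reads a gene, HD limits every comparison that uses it, and the intervals above show how far.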
